A study of Rattus norvegicus with 6 samples.

Results

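The miR-29 and miR-26 families were followed in the arcuate nucleus (ARC), a hypothalamic region, on Day 14 after nerve surgery in rats. Their members were every listed mature microRNA (miRNA) whose name begins with miR-29a, miR-29b, miR-29c, miR-26a or miR-26b, whichever arm of the hairpin it comes from. This gave 10 of the 562 miRNAs listed, 6 of miR-29 and 4 of miR-26. The 3 sham libraries came from Sprague-Dawley rats aged 8 to 10 weeks whose left infraorbital nerve (ION) was exposed and not tied, and the 3 CCI-ION libraries from rats of the same strain and age with loose silk ligatures around that nerve (chronic constriction injury). All rats had the nerve exposed, and the methods name isoflurane anesthesia for the surgery and a pentobarbital overdose before ARC tissue was taken for qPCR. No experimental agent or allele is named for these libraries, and the study's methods describe male rats unless stated otherwise. RNA came from whole ARC tissue, so fewer cells of a type and less RNA per cell cannot be told apart. The study gives more rats per group than there are libraries and does not say how rats were divided among them, so n counts libraries and p-values measure the spread between them, which may be technical.

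miRNAs are cut from hairpin precursors whose arms, 5p and 3p, can each yield a mature strand, and bases 2 to 8 of that strand, the seed, pair with target mRNAs. miR-29 is made from a pair of gene clusters, rises in neurons and glia as the brain matures, and is known for repressing collagens and other matrix genes, DNA methyltransferases and, in neurons, pro-apoptotic BH3-only genes. miR-26 is made from introns of Ctdsp genes, which encode small C-terminal domain phosphatases that hold back neuronal genes, and it is known to repress its own hosts as neurons form.

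The mature sequences are shown because the paralogs differ at few bases, which bears on how reads are divided among them. They are RefSeq sequences from a table of assembly GRCr8, in which 512 of the 562 names and all 10 members were matched, written 5′ to 3′ with the seed in capitals. The 5 dominant strands, those with more reads in the families' hairpins or, for miR-29c, the strand that carries the family seed, are as follows.
rno-miR-29a-3p: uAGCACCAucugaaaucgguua
rno-miR-29b-3p: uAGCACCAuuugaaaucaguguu
rno-miR-29c-3p: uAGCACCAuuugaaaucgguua
rno-miR-26a-5p: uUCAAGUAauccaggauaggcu
rno-miR-26b-5p: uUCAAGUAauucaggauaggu
Among the 512 matched miRNAs, the miR-29 seed stood only in these 3 strands and the miR-26 seed only in these 2. Counted from 1 at the 5′ end, miR-29a-3p and miR-29c-3p differ by C10U alone, miR-29b-3p and miR-29c-3p by A18G, G21U and U22A, and miR-26a-5p and miR-26b-5p by C11U and C21U. These were read without gaps over the shared length, and miR-29b-3p (23 bases) and miR-26a-5p (22 bases) are each 1 base longer than miR-29c-3p and miR-26b-5p. The authors' counting could divide reads between such strands, so single values of close paralogs are uncertain. The end of miR-29b-3p, AGUGUU, is a known nuclear localization element. These bases were found, at any position in the strand, in 5 of the 512 sequences (0.977%), and among the members only in miR-29b-3p.

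The other 5 members are the opposite strands of the same hairpins, and each has a seed of its own. The most abundant of them are shown here because they were measured beside the family strands and spread differently among libraries.
rno-miR-29c-5p: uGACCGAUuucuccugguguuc
rno-miR-29b-5p: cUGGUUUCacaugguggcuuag
rno-miR-26b-3p: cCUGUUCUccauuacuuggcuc
The hairpins of miR-29b2 and miR-29c lie next to each other and are shown with their mature arms in capitals.
Mir29b2: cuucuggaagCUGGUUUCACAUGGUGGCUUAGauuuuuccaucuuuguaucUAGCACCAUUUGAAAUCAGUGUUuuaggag
Mir29c: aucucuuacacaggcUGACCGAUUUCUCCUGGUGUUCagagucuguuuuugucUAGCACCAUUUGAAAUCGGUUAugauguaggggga
In GRCr8, Mir29b2 is at chr13:109098831-109098911 and Mir29c at chr13:109099359-109099446, both on the plus strand with 447 bases between them. The other cluster is on the minus strand, Mir29a at chr4:60617955-60618042 and Mir29b1 at chr4:60618334-60618414, with 291 bases between. Both miR-29b hairpins yield the same miR-29b-3p, whereas the listed miR-29b-5p comes from Mir29b2 alone. Mir26a at chr8:127633048-127633137 lies within Ctdspl and Mir26b at chr9:83425709-83425793 within Ctdsp1, each on the plus strand like its host. The table gives gene bounds and no exons. The genes Mir3556a, Mir3587 and Mir3556b overlap Mir29a, Mir29b1 and Mir29c on the opposite strand and were not analysed here.

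Levels are normalized counts, which from their values appear to be reads divided by 1 size factor per library, and the read numbers given here were worked out on that basis. Where 3 values are given for a group, they stand for replicates 1, 2 and 3 in that order. Multiplied back, the libraries held 11115049 to 14313839 reads in the sham group and 8628309 to 11297551 in the CCI-ION group, CCI-ION replicates 2 and 3 having fewer than any sham library. The smallest value above 0 was worth 5 reads, so a miRNA listed at 0 need not be absent. miR-7a-5p, the most abundant miRNA, made up 20.1% ± 3.93 of sham reads and 11.4% ± 3.05 of CCI-ION reads (SD, n = 3 each). Of the 555 miRNAs tested with limma on log2(normalized count + 1), 38 (6.85%) had an adjusted p under 0.05 (Benjamini-Hochberg), 19 in each direction, and 183 (33.0%) had an unadjusted p under 0.05. The median log2 fold change of all 555 was -0.01.

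Together the 10 members made up 3.07% ± 0.210 of all reads in sham libraries and 3.56% ± 0.296 in CCI-ION libraries (SD, n = 3 each), while their summed normalized counts overlapped, at 368700 ± 13409 and 371565 ± 27077. All 10 had a mean of at least 1 and were tested. None had an adjusted p under 0.05 in limma, and 2, miR-26b-5p and miR-29b-5p, had an unadjusted p under 0.05. All CCI-ION values exceeded all sham values for 2 members, miR-29a-3p and miR-29c-5p, as for 19.5% of all miRNAs tested, and the reverse held for another 2, miR-26b-5p and miR-29b-5p, as for 21.3% of all. The median log2 fold change of the members was -0.10, and it was -0.0015 over the 8 with a mean of at least 10, without miR-29a-5p and miR-26a-3p, against 0.02 for all 489 miRNAs with such a mean. The counts of members were therefore at or near the shares seen over all miRNAs, and below for an unadjusted p.

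**Figure D1:**
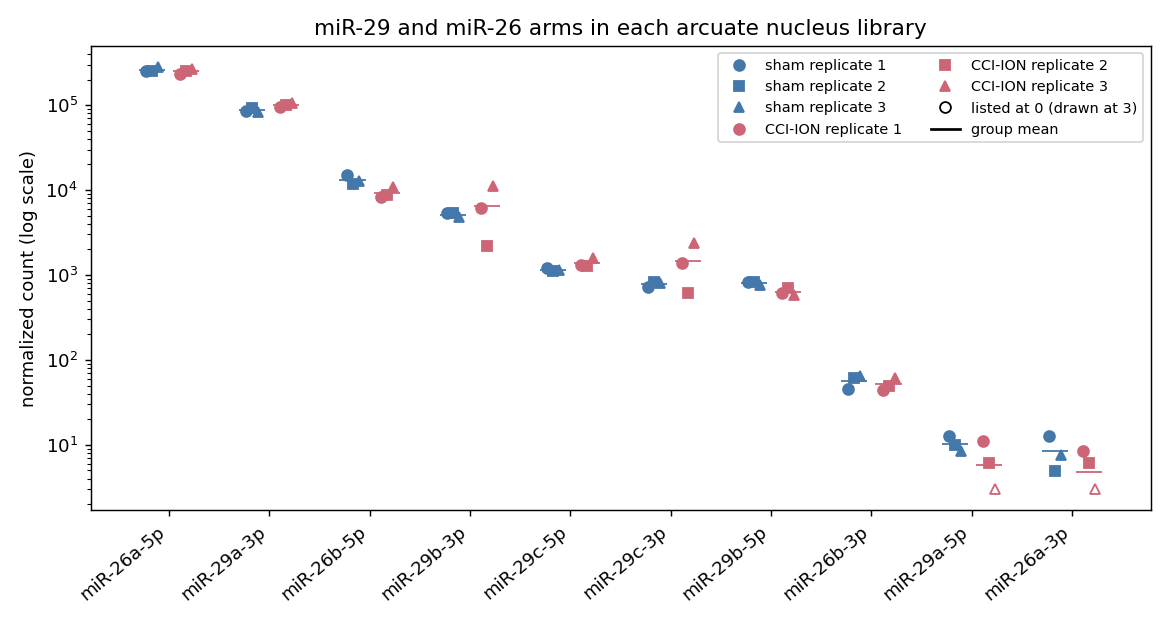
Normalized counts of the 10 members in each sham and CCI-ION library (log axis), with 1 point per library, bars at the group means and hollow points for values listed at 0. miR-26a-5p and miR-29a-3p lie at the top with little spread, while miR-29b-3p and miR-29c-3p spread widely among the 3 CCI-ION libraries only.

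miR-26a-5p, the abundant miR-26 strand, stood at rank 10 of all miRNAs by its mean level and was nearly level between the groups. Its level was 251867, 250712 and 280475 normalized counts in the sham libraries. The CCI-ION libraries held 234924, 254137 and 266869. The groups overlapped, and the log2 fold change of -0.05 (standard error 0.11, 95% interval -0.33 to 0.23) had an adjusted p of 0.783 in limma. Its sign depended on the scaling: it was 0.15 with total counts and 0.22 with scaling to a list of neuronal miRNAs. Upper-quartile scaling gave -0.30 (adjusted p = 0.124).

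miR-26b-5p, which shares the seed and comes from the Ctdsp1 intron, was lower in every CCI-ION library. Its level was 15030, 11896 and 12673 normalized counts in the sham libraries. The CCI-ION libraries held 8337, 8720 and 10923. The mean was 13200 ± 1632 in sham and 9327 ± 1396 in CCI-ION libraries (SD, n = 3 each), and the log2 fold change was -0.50 (standard error 0.16, 95% interval -0.91 to -0.10). Its adjusted p of 0.107 (limma with Benjamini-Hochberg adjustment) missed the threshold, which it passed with upper-quartile scaling (-0.75, adjusted p = 0.0316) and among miRNAs averaging 100 or more (adjusted p = 0.0463). The fold change was smaller with total counts (-0.30, adjusted p = 0.214) and with scaling to the neuronal list (-0.24, adjusted p = 0.479).

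The proportion of the miR-26 seed made up by each paralog followed from these values. miR-26a-5p was 16.8, 21.1 and 22.1 times miR-26b-5p across sham and 28.2, 29.1 and 24.4 times across CCI-ION libraries, so the groups did not overlap. Their sum in normalized counts was 274217 ± 16534 for sham and 261303 ± 17318 in CCI-ION libraries (SD, n = 3 each), of which miR-26a-5p gave 95.2% ± 0.703 and 96.4% ± 0.328. The lower miR-26b-5p was thus a small part of all strands with that seed.

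The 3p strands of the miR-26 hairpins, which are mostly degraded after processing, were rare. miR-26b-3p was at 45.7, 61.5 and 64.1 normalized counts in sham and at 43.7, 49.9 and 61.4 in CCI-ION libraries, with overlapping groups. miR-26a-3p came from 11, 6 and 9 reads in the sham libraries and from 9, 5 and 0 reads in the CCI-ION libraries. At this depth no difference in miR-26a-3p was detectable, and its fitted fold change, which depends on the value taken for 0, is not interpreted.

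miR-29a-3p, the main miR-29 strand and a known repressor of collagen genes, was at rank 23 of all miRNAs and slightly higher in every CCI-ION library. Its level was 84463, 91777 and 83286 normalized counts in the sham libraries. The CCI-ION libraries held 94059, 99708 and 106802. The groups did not overlap, but limma gave an adjusted p of 0.226 for the log2 fold change of 0.21 (standard error 0.11, 95% interval -0.06 to 0.49). With upper-quartile scaling, which lowered the median of all miRNAs to -0.25, it was -0.04.

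miR-29b-3p, made from both clusters, was steady in the sham libraries and spread most in the CCI-ION libraries among the members averaging 100 or more. The sham libraries held 5311, 5303 and 4850 normalized counts (4647, 6378 and 5754 reads). The CCI-ION libraries held 6135, 2184 and 11255 (6594, 1794 and 10455 reads). CCI-ION replicate 2 was thus below all sham libraries and CCI-ION replicate 3 above all of them. The log2 fold change was 0.05 (standard error 0.59, 95% interval -1.43 to 1.52, adjusted p = 0.964 in limma), and it was 0.69 without CCI-ION replicate 2 and -0.49 without CCI-ION replicate 3.

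miR-29c-3p, which comes from the second cluster and differs from miR-29a-3p at a single base, spread in the same order of libraries. The sham libraries held 727, 833 and 807 normalized counts (636, 1002 and 958 reads). The CCI-ION libraries held 1386, 609 and 2405 (1490, 500 and 2234 reads). The mean was 789 ± 55.4 in sham and 1467 ± 901 in CCI-ION libraries (SD, n = 3 each). The groups overlapped through CCI-ION replicate 2, and the log2 fold change of 0.68 (standard error 0.50, 95% interval -0.56 to 1.92) had an adjusted p of 0.364 in limma. It was 1.21 without CCI-ION replicate 2 (adjusted p = 0.0645) and 0.22 without CCI-ION replicate 3 (adjusted p = 0.753).

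**Figure D2:**
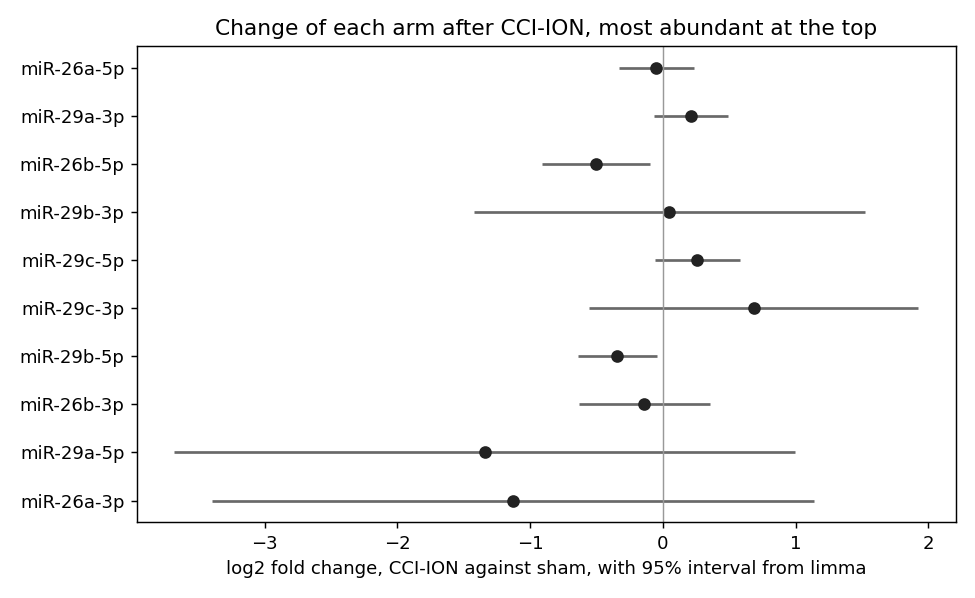
Log2 fold change (CCI-ION over sham) of each member with its 95% interval from limma. The intervals of miR-26b-5p and miR-29b-5p lie below 0 before adjustment, those of miR-29b-3p and miR-29c-3p are wide, and the estimates of miR-29a-5p and miR-26a-3p rest on a library listed at 0.

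Between libraries, miR-29b-3p and miR-29c-3p had a larger spread in the CCI-ION group than the other members averaging 100 or more. The SD of log2 values of miR-29b-3p was 0.0750 in sham and 1.20 in CCI-ION libraries, the latter at rank 4 of the 364 miRNAs averaging 100 or more. That of miR-29c-3p was 0.103 in sham and 0.997 in CCI-ION libraries, at rank 6. For all 364 the median SD was 0.127 in sham and 0.194 in CCI-ION libraries. miR-29a-3p (0.0757 and 0.0918) and miR-26a-5p (0.0916 and 0.0928) stayed below these medians in both groups. The highest CCI-ION library was 5.15 times the lowest for miR-29b-3p and 3.95 times for miR-29c-3p. CCI-ION replicate 2, the lowest for both, also had the fewest reads of all 6 libraries, and CCI-ION replicate 3, the highest, the second fewest. The part of depth in this spread was not tested.

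**Figure D3:**
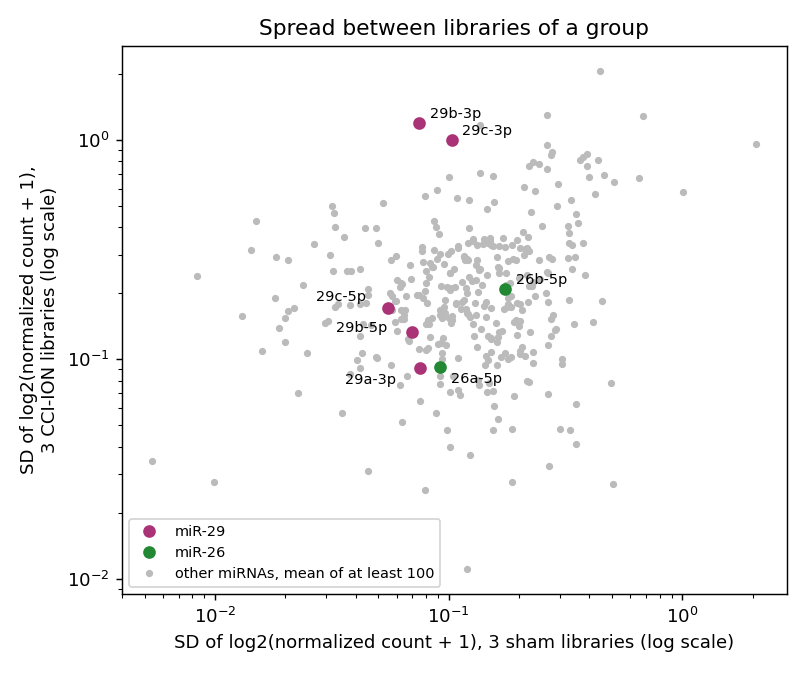
SD of log2(normalized count + 1) among the 3 sham libraries and among the 3 CCI-ION libraries (364 miRNAs averaging 100 or more), with the members marked. miR-29b-3p (0.0750 and 1.20) and miR-29c-3p (0.103 and 0.997) stand near the top for CCI-ION and low for sham.

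The 5p strands of the same hairpins did not spread this way. miR-29c-5p was at 1195, 1107 and 1155 normalized counts in sham and at 1295, 1279 and 1580 in CCI-ION libraries, with no overlap. limma gave an adjusted p of 0.212 for its log2 fold change of 0.26 (standard error 0.13), which was 0.011 with upper-quartile scaling (adjusted p = 0.961). With total counts it was 0.46 (adjusted p = 0.0814), and with scaling to the neuronal list 0.53 (adjusted p = 0.133). miR-29b-5p, the strand of Mir29b2, was at 827, 821 and 759 normalized counts in sham and at 612, 701 and 588 in CCI-ION libraries, all lower than in sham. Its log2 fold change was -0.34 (standard error 0.12, 95% interval -0.64 to -0.05, adjusted p = 0.122 in limma), and it passed with upper-quartile scaling alone (-0.59, adjusted p = 0.0287). Total counts gave -0.14 (adjusted p = 0.448) and scaling to the neuronal list -0.07 (adjusted p = 0.723). miR-29a-5p came from 11, 12 and 10 reads in the sham libraries and 12, 5 and 0 reads in the CCI-ION libraries, too few to compare.

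Ratios within a library are free of the scaling. miR-29b-3p was 7.31, 6.37 and 6.01 times miR-29c-3p across sham and 4.43, 3.59 and 4.68 times across CCI-ION libraries. These strands therefore moved together among the CCI-ION libraries, at a ratio below that of every sham library. miR-29a-3p was 15.9, 17.3 and 17.2 times miR-29b-3p in sham and 15.3, 45.6 and 9.49 times in CCI-ION libraries. Its ratio to miR-29c-3p was 116.2, 110.2 and 103.1 in sham and 67.8, 163.8 and 44.4 in CCI-ION libraries. Within the miR-29b name, the 3p strand was 6.42, 6.46 and 6.39 times the 5p strand in sham and 10.0, 3.11 and 19.1 times in CCI-ION libraries. These last 3 ratios were thus stable in sham libraries and differed several-fold between CCI-ION libraries.

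Summed over the 3 strands with the miR-29 seed, the level in normalized counts was 92452 ± 4792 for sham and 108181 ± 10645 in CCI-ION libraries (SD, n = 3 each). miR-29a-3p made up 93.6% of this sum in sham and 92.8% ± 4.31 in CCI-ION libraries. In CCI-ION replicates 1, 2 and 3 the sum was 101580, 102501 and 120462, and the share of miR-29a-3p was 92.6%, 97.3% and 88.7%.

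**Figure D4:**
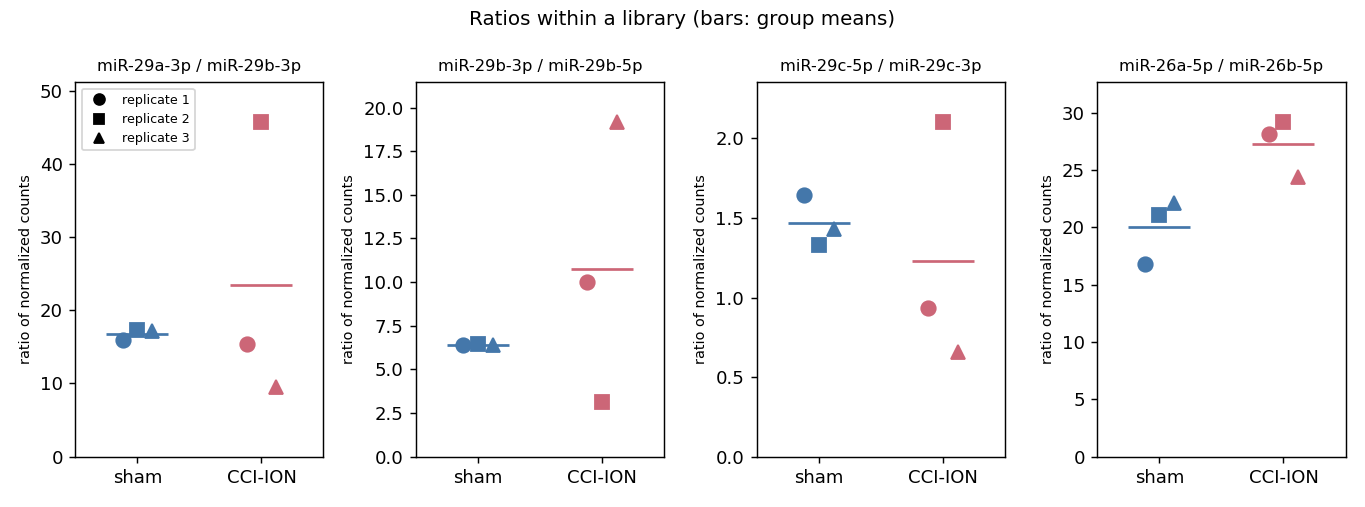
Ratios between members within each library (linear axes from 0), with 1 point per library and bars at the group means. miR-26a-5p to miR-26b-5p does not overlap between the groups, whereas the ratios of miR-29a-3p to miR-29b-3p, miR-29b-3p to miR-29b-5p and miR-29c-5p to miR-29c-3p lie close together in sham and far apart in CCI-ION libraries, the first from 9.49 to 45.6.

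Arm use, as log2 of 5p over 3p, was tested for 158 hairpins with both arms at a mean of at least 10, of which 30 (19.0%) had an adjusted p under 0.05 in limma. None of the 3 members tested was among them. For miR-26b the ratio was 8.33, 7.57 and 7.61 in sham and 7.54, 7.42 and 7.45 in CCI-ION libraries, a difference of -0.36 (standard error 0.23, adjusted p = 0.296 in limma) that was -0.12 without sham replicate 1. For miR-29c it was 0.72, 0.41 and 0.52 in sham and -0.10, 1.07 and -0.61 in CCI-ION libraries, so the more abundant arm was 5p in every sham library and in CCI-ION replicate 2, and 3p in CCI-ION replicates 1 and 3. The difference for miR-29c was -0.43 (standard error 0.42, adjusted p = 0.496) and for miR-29b, whose 3p strand also comes from Mir29b1, -0.39 (standard error 0.63, adjusted p = 0.703). Without CCI-ION replicate 2 both passed the threshold, miR-29b at -1.11 (adjusted p = 0.0443) and miR-29c at -0.90 (adjusted p = 0.0364). Leaving out CCI-ION replicate 3 gave 0.20 for miR-29b and -0.06 for miR-29c (adjusted p = 0.814 and 0.920). Neither hairpin passed with all libraries, and whether they passed depended on a single library. The hairpins of miR-29a and miR-26a were not tested, since 1 arm had a mean under 10.

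Between the families, the ratio of miR-29 to miR-26 strands was compared in 6 pairs with exact permutation tests, two-sided, for which 3 libraries against 3 cannot give a p under 0.1. miR-29a-3p was 0.335, 0.366 and 0.297 of miR-26a-5p across sham and 0.400, 0.392 and 0.400 across CCI-ION libraries. On the log2 scale this was a difference of 0.26, with no overlap (exact p = 0.1, adjusted 0.3 over the 6 pairs). miR-29a-3p to miR-26b-5p differed by 0.72 with no overlap, from 2.72 ± 0.23 to 3.43 ± 0.13 on the log2 scale (SD, n = 3 each; exact p = 0.1, adjusted 0.3). The 4 pairs with miR-29b-3p or miR-29c-3p overlapped between the groups, with log2 differences from 0.10 to 1.19 and exact p from 0.2 to 1. Leaving out CCI-ION replicate 2 or 3 moved miR-29b-3p to miR-26b-5p to 1.15 or 0.13, miR-29c-3p to miR-26a-5p to 1.27 or 0.31 and miR-29b-3p to miR-26a-5p to 0.75 or -0.40. No difference between the families passed the threshold, which this permutation test cannot reach with 3 libraries against 3.

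**Figure D5:**
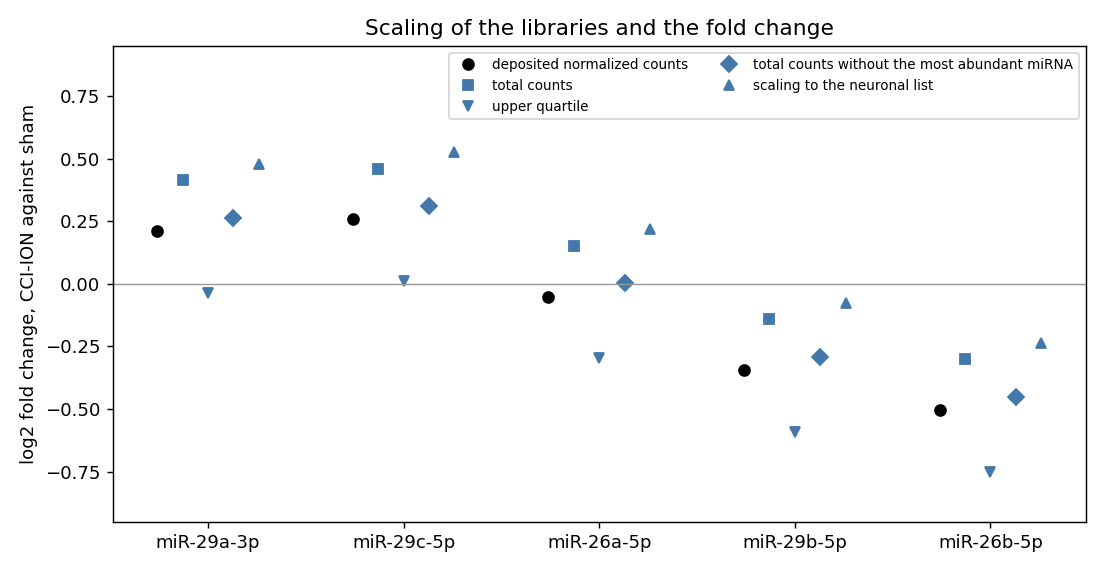
Log2 fold changes (CCI-ION over sham) of miR-29a-3p, miR-29c-5p, miR-26a-5p, miR-29b-5p and miR-26b-5p under each scaling: as deposited, by total counts, by upper quartiles, by total counts without the most abundant miRNA and to the neuronal list. miR-26b-5p and miR-29b-5p stay below 0 under each of the 5, miR-26a-5p and miR-29a-3p change sign with the scaling, and miR-29c-5p falls to 0.011 with upper quartiles.

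Other miRNAs that share a trait with a family were counted in the same fit. Of 20 miRNAs hosted, like miR-26, in introns of protein-coding genes, 5 had an adjusted p under 0.05 in limma (6.85% of all miRNAs tested did), all lower in CCI-ION libraries, and the median log2 fold change was -0.33. These 5 were miR-107-3p, miR-151-5p, miR-190a-5p, miR-218a-5p and miR-338-3p, whereas the abundant miR-103-3p was at 0.04. In 8 of the 20 all CCI-ION values were below all sham values (21.3% over all miRNAs), and in 2 (19.5% over all), miR-140-3p at 0.44 (adjusted p = 0.107) and miR-151-3p at 0.43 (adjusted p = 0.136), they were above. Since miR-151-3p and miR-151-5p are arms of the same hairpin, the 20 do not all stand for separate hosts. Of 12 miRNAs known, like miR-29, to rise as the brain matures, 2 passed, miR-218a-5p and miR-338-3p, both lower, with a median of -0.45. An unadjusted p under 0.05 in limma was found for 7 of the 12 (33.0% over all). In 6 of the 12 all CCI-ION values were below all sham values (21.3% over all). Beside the 2 that passed, these were miR-128-3p (-0.91), miR-34a-5p (-0.67), miR-138-5p (-0.45) and miR-139-5p (-0.45). They were above in 1 (19.5% over all), miR-129-5p at 0.45 (adjusted p = 0.0762, limma). The abundant let-7a-5p was at -0.05 and let-7c-5p at -0.11, with overlapping groups.

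Markers of cell types differed between the libraries too, and none of the lists defines the ARC itself. Over all miRNAs tested, the share passing was 6.85%. An unadjusted p under 0.05 was found for 33.0% of them and for 5 of the 10 neuronal, 3 of the 4 oligodendrocyte and 5 of the 8 vessel wall and fibroblast miRNAs. Of 10 neuronal miRNAs, 2 passed the threshold, both lower (miR-124-3p at -0.78, adjusted p = 0.0435, and miR-218a-5p at -0.93, adjusted p = 0.0190, limma), and the median log2 fold change of the list was -0.31. Its most abundant miRNA, miR-9a-5p, was at -0.17 with overlapping groups (adjusted p = 0.423), miR-128-3p was at -0.91 (adjusted p = 0.0597), and miR-129-5p was at 0.45, with all CCI-ION values above all sham values (adjusted p = 0.0762). The summed level of the 10 was 2188080 to 2378650 in sham and 1706630 to 2113130 in CCI-ION libraries. Of 4 oligodendrocyte miRNAs, 1 passed, miR-338-3p at -1.27 (adjusted p = 0.0190, limma), with a median of -0.92. Their sum was 13685 to 19928 in sham and 10471 to 11304 in CCI-ION libraries. In this list miR-219a-5p was listed at 0 in every CCI-ION library. Its sham mean was only 6.60 normalized counts, near the 5-read floor, and the groups overlapped (adjusted p = 0.169, limma). Of 8 miRNAs of vessel wall and fibroblasts, 3 passed, all higher (miR-143-3p at 1.11, miR-145-5p at 0.85 and miR-199a-5p at 1.66), with a median of 0.72. Of the others in the list, miR-126a-5p was at -0.91, with all CCI-ION values below all sham values (adjusted p = 0.205), and miR-21-5p (0.60) and miR-199a-3p (0.26) overlapped between the groups. The sum of the 8 was 93147 to 118058 in sham and 169116 to 182034 in CCI-ION libraries. Of 8 pituitary and neuroendocrine miRNAs 0 passed and 4 had an unadjusted p under 0.05. Their median log2 fold change was 0.64, with miR-200b-3p at 0.89 (overlapping groups) and miR-375-3p at 0.58, whereas miR-7a-5p at -1.04 and miR-7b at -0.87, the most abundant, made up most of the sum, which was 2120030 to 3418950 in sham and 966693 to 1571990 in CCI-ION libraries. The part of these marker differences in the levels of miR-29 and miR-26 was not tested. For microglia and blood immune cells (6 tested, sums of 9543 to 11380 and 8664 to 10402), erythrocytes (3 tested, 2837 to 3798 and 2898 to 3660), choroid plexus and ependyma (6 tested, 66648 to 90999 and 85712 to 109963) and skeletal muscle (4 tested, 98.3 to 158 and 102 to 124), 0 passed, 2, 1, 1 and 0 had an unadjusted p under 0.05, and the medians were 0.01, -0.08, 0.27 and -0.06. Among the erythrocyte miRNAs, miR-451-5p was at 1.07, with all CCI-ION values above all sham values (adjusted p = 0.0649, limma). miR-486 (-0.08) and miR-144-5p (-1.12) overlapped between the groups. In the microglia and blood immune list, all CCI-ION values were above all sham values for 1 miRNA, miR-223-3p at 0.95 (adjusted p = 0.0597, limma). They were below for 1, miR-150-5p at -0.45 (adjusted p = 0.113, limma). Over all miRNAs tested, 19.5% were above and 21.3% below in this way.

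The miRNAs most like each dominant strand were ranked by Pearson's r of log2 values over the 6 libraries, as a description over libraries that share their depth and scaling. They were miR-148b-3p (0.943), miR-873-5p (0.941) and let-7i-3p (0.940) for miR-29a-3p. For miR-29b-3p they were miR-665 (0.864), miR-455-5p (0.860) and miR-3068-5p (0.858), and for miR-29c-3p they were miR-455-5p (0.970), miR-24-1-5p (0.946) and miR-344a-3p (0.945), so that miR-455-5p was named for both. For miR-26a-5p they were miR-181a-5p (0.916), miR-146a-5p (0.821) and miR-181a-2-3p (0.780), and for miR-26b-5p miR-7b (0.948), miR-98-5p (0.909) and miR-6319 (0.908).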

How the data were processed

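Small RNA of the ARC was measured in 3 sham and 3 CCI-ION libraries, grouped by their labels. What the authors deposited is a signal value for each mature miRNA in each library, called normalized counts here. From the values, these appear to be reads divided by a size factor: every low value was a whole multiple of a step within 0.01, the smallest being 5 steps, so that the worth of a read is inferred. The submitters' processing notes name cutadapt 1.14, Bowtie 1.1.1 and the build rn6. The miRNA annotation, the counting and the normalization are not given in the sources used here. Reads were multiplied back to describe the depth of libraries and of single miRNAs, and entered no test.

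log2(normalized count + 1) was compared with limma 3.58.1 in R 4.3.3, two-sided, with Benjamini-Hochberg adjustment over the 555 miRNAs whose mean reached 1, and a threshold of 0.05. The fit was tested on simulated data. Low miRNAs have understated fold changes on this scale. Arm ratios used limma as well, and family ratios used exact permutation tests. Members and lists were chosen with earlier results of these data known. Beside the members, the text names the 3 miRNAs most correlated with each dominant strand among those with a mean of at least 100. It also names the most abundant miRNA and some of the 4 most abundant of each list. List miRNAs that passed the threshold, did not overlap between the groups or went against their list were named after their values were seen. Alternatives were other scalings, filters, pseudocounts, an intensity trend, a replicate block and leaving out each library. No column lacked a sample.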

Additional observations from a re-analysis of the deposited data

How the results depend on the processing

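Causes were not tested, except where an alternative's own construction gives one. The 38 calls became 51 with total counts, of which 42 were higher and 9 lower, 94 with upper quartiles, of which 10 were higher and 84 lower, 49 without the most abundant miRNA (30 higher), 56 with scaling to the neuronal list (49 higher), 63 and 101 with means of at least 10 and 100, where fewer miRNAs were tested, 62 with a pseudocount of 10 and 88 with the intensity trend. Of the members 2 passed with upper quartiles and 1 with a mean of at least 100, and none under the other alternatives. These scalings moved the median of all miRNAs to 0.17, -0.25, 0.02 and 0.23. miR-26a-5p was then at 0.15 with total counts, 0.0014 without the most abundant miRNA and 0.22 with the neuronal list, miR-26b-3p at 0.058 with total counts and 0.12 with the neuronal list, and miR-29a-3p at -0.036 and miR-29b-3p at -0.20 with upper quartiles. With the replicate block 3 miRNAs passed, no member among them, and 16 hairpins. Deviations from the group means correlated at -0.09, 0.30 and -0.18 between equally numbered libraries, which are therefore not treated as pairs.

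With a library left out, calls ranged from 7 to 43 (9, 11 and 7 without sham replicates 1, 2 and 3, and 35, 43 and 11 without CCI-ION replicates 1, 2 and 3), hairpins from 1 to 40, miR-26a-5p from -0.093 to 0.0020, miR-29b-3p from -0.49 to 0.69, the miR-29b arm ratio from -1.11 to 0.20 and the log2 ratio of miR-29b-3p to miR-26a-5p from -0.40 to 0.75. miR-26b-5p kept its sign in all 17 alternatives (-0.75 to -0.24, adjusted p from 0.0316 to 0.479 in limma), as did miR-29b-5p (-0.59 to -0.07, adjusted p from 0.0287 to 0.723). Depth limits miR-29a-5p and miR-26a-3p, which lie near 5 reads.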

Other observations

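The order of the CCI-ION libraries seen for miR-29b-3p and miR-29c-3p, replicate 3 above 1 above 2, held for 61 of the 364 miRNAs averaging 100 or more (16.8%). In 5 of these 61, replicate 3 was at least 3 times replicate 2: miR-340-5p (15.4 times), miR-374-3p (5.55 times), miR-29b-3p (5.15 times), miR-29c-3p (3.95 times) and miR-190b-5p (3.54 times). They were chosen after their values were seen. miR-340-5p was at 2027, 1106 and 1340 normalized counts in sham and at 11251, 1349 and 20805 in CCI-ION libraries.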
